A study of Mus musculus with 56 samples.

Results

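The genes described here are 8 genes of the TH1 program of CD4+ helper T cells, which were followed in mouse TH1, TH2, TH17 and Treg cultures with or without the loss of 1 of 2 enzymes, ODC or DOHH. They are Ifng, Tbx21, Hlx, Eomes, Il12rb1, Il12rb2, Il18r1 and Il18rap. They were chosen by name, as 8 of the 47937 genes listed, and all 8 passed the filter on low counts in both count tables. Ornithine decarboxylase (ODC, gene Odc1) makes the polyamine putrescine, and deoxyhypusine hydroxylase (DOHH) completes hypusine, an amino acid made from the polyamine spermidine on the translation factor eIF5A. CD4+ T cells came from the spleen and lymph nodes of C57BL/6 mice in which CD4-Cre, driven by the CD4 promoter, met floxed Odc or floxed Dohh alleles. This Cre acts during T cell development in the thymus. WT cells were the controls of each table. All cells were activated with anti-CD3 and anti-CD28 in the presence of IL-2 and collected on day 4. TH1 cultures received IL-12 and anti-IL-4, and TH2 cultures received IL-4 and anti-IFN-γ. TH17 cultures received IL-6, TGF-β and IL-1β, Treg cultures received TGF-β, and both also received antibodies against IFN-γ and IL-4. The ODC table held 16 ODC_WT and 15 ODC_KO libraries, with 4 libraries per subset and genotype apart from 3 in ODC_KO TH2. The DOHH table held 12 DOHH_WT and 12 DOHH_KO libraries, with 3 per subset and genotype. The labels do not say that replicates of a group came from separate animals, so p-values measure the spread between these libraries, which may be partly technical.

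TH1 cells defend against intracellular microbes and are known for interferon-γ (IFN-γ, encoded by Ifng). T-bet, encoded by Tbx21, is the transcription factor that defines the lineage, and Hlx and Eomes encode a homeobox factor and a second T-box factor that act with it on Ifng. IL-12 binds a receptor of the chains Il12rb1 and Il12rb2 and signals through STAT4, and IL-18 binds a receptor of the chains Il18r1, which holds the cytokine, and Il18rap, which completes the signalling complex. In the textbook view Ifng and Tbx21 are kept low in TH2, TH17 and Treg cells, where other lineage factors act.

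ODC libraries held 5905374 to 9145214 counts and DOHH libraries 6572148 to 12576933. Levels are given as CPM, counts scaled to the library total after that total was multiplied by a scaling factor of the library (TMM). A floor of 3 counts was worth 0.31 to 0.499 CPM in ODC libraries and 0.226 to 0.473 CPM in DOHH libraries, and covers counting error only. Most markers of the labels were highest in their WT cultures: mean Foxp3 was 478 CPM in ODC_WT Treg and 576 CPM in DOHH_WT Treg against at most 44.6 CPM in any other WT group, and Gata3, Il4 and Il13 were highest in TH2 and Il17a in TH17 in both tables. Of the other Treg markers, Ikzf2 was highest in WT Treg in both tables, and Il2ra was not, with means of 2702 CPM in ODC_WT Treg against 4037 CPM in ODC_WT TH1 and 1294 against 2601 CPM in DOHH_WT. The targeted genes did not fall with the labels. Odc1 did not pass the test in any of the 4 subsets (log2 fold change 0.26, -0.20, -0.40 and 0.20 in TH1, TH2, TH17 and Treg). Dohh was higher in DOHH_KO TH1, TH2 and Treg (1.43, 1.10 and 1.15) and did not pass in TH17 (0.41). A whole-gene count includes exons that were not floxed, so these values check nothing about the deletion, and the libraries are called by their labels throughout. The ODC_WT libraries numbered replicate 4 stood apart, with the highest Ifng of their group in all 4 subsets, and where leaving them out changes a call of a member, the value without them stands beside the result.

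Markers of other cells moved with genotype in every subset. The summed level of 6 gamma-delta T cell genes ran from 16.01 to 72.0 CPM over the ODC_WT libraries and 142 to 702 CPM over ODC_KO, and from 27.2 to 67.0 CPM over DOHH_WT and 711 to 1544 CPM over DOHH_KO, with 5 or 6 of the 6 called higher in each of the 8 comparisons of KO with WT. The sum of 8 natural killer (NK) cell or ILC1 genes ran from 50.4 to 381 CPM over ODC_WT and 443 to 999.5 CPM over ODC_KO, and from 36.8 to 318 CPM over DOHH_WT and 706 to 6589 CPM over DOHH_KO. Of these, 3 to 8 were called higher in the ODC subsets and 6 or 7 of the 7 tested in the DOHH subsets. Ncr1, a defining NK cell receptor in this list, was at 0 in 9 of 16 ODC_WT libraries and at most 0.435 CPM in the others, and ran from 0.13 to 5.81 CPM over ODC_KO. In the DOHH table it was at most 0.299 CPM over DOHH_WT and 1.21 CPM over DOHH_KO, and at 0 in 5 and 6 of the 12 libraries. All 5 basophil or mast cell genes were called higher in each comparison, with sums of 1.14 to 13.9 CPM over ODC_WT, 10.3 to 279 CPM over ODC_KO, 0.973 to 2.99 CPM over DOHH_WT and 37.0 to 948 CPM over DOHH_KO. Cd4 itself ran from 441 to 1032 CPM in ODC_WT and 273 to 694 CPM in ODC_KO, and from 661 to 968 CPM in DOHH_WT and 22.1 to 79.7 CPM in DOHH_KO, where Cd3d ran from 355 to 1126 CPM beside 465 to 661 CPM in DOHH_WT. The part of these markers in the results below was not tested. In bulk RNA, more cells that express a gene and more RNA per cell cannot be told apart.

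The sequences just before the start sites of 3 members are shown because these genes carry the main contrasts: Ifng and Tbx21 rose outside TH1, and Il12rb2 fell in 3 comparisons. They are the 250 bases before the RefSeq start site on the gene's strand, 5′ to 3′ (RefSeq, GRCm38.p6; chr10:118440796-118441045 on the plus strand, chr11:97115332-97115581 and chr6:67376189-67376438 on the minus strand). Capitals mark matches to the STAT element TTCNNNGAA, the T-box half-site core GTGTGA (or TCACAC on the other strand) and the TATA box TATAAA.
Ifng: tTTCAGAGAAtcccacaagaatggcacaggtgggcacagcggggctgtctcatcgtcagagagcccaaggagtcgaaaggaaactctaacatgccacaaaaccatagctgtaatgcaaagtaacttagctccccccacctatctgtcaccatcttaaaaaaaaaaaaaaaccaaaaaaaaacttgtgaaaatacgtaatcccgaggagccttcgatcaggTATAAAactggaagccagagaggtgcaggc
Tbx21: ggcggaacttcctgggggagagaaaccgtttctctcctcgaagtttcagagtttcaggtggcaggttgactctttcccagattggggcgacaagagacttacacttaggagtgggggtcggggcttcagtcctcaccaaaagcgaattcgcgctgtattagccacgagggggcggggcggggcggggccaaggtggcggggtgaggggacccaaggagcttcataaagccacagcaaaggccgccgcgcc
Il12rb2: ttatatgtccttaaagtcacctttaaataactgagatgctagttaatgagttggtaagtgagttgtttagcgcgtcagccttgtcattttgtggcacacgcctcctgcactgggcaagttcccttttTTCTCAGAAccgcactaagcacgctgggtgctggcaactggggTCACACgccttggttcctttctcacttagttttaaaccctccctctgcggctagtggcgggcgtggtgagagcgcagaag
Ifng held a STAT match 249 bases and a TATA match 30 bases before its start, Il12rb2 held a STAT match 123 bases and a T-box match 80 bases before its start, and Tbx21 held none. Windows of 250 bases before to 50 bases after a start were found for 7 of the 8 members, 3 for Il18r1 and 1 for each of the others. Of these 9 windows, 3 held the STAT element, 1 the T-box core, 1 the TATA box and 0 the AP-1 element TGANTCA, read on both strands. The third STAT window belonged to an Il18r1 start 454 bases inside the annotated gene, and the Il18r1 window at the gene's start held none. Over 32851 promoters of the same length the shares were 8.30%, 14.5%, 13.6% and 7.81%. A match is a run of letters and not a shown binding site.

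In WT cells Ifng, Tbx21, Hlx and Il12rb2 had their highest mean in TH1 in both tables. The mean of Il12rb1 was highest in TH2 and those of Il18r1 and Il18rap in Treg in both tables, and that of Eomes in Treg in ODC_WT and in TH1 in DOHH_WT. A gene is counted as called when the log2 fold change exceeded 1 in size with an adjusted p under 0.05 (edgeR quasi-likelihood test, Benjamini-Hochberg adjusted over all genes). Between ODC_WT TH1 and ODC_WT TH2, TH17 and Treg, 6, 5 and 6 of the 8 genes were called, where 8.87%, 14.9% and 19.4% of all genes tested were called. Between DOHH_WT TH1 and the same subsets, 6, 5 and 5 were called against 6.21%, 12.4% and 15.5% of all genes. All but 1 of these calls were higher in TH1. The exception was Eomes, which was lower in ODC_WT TH1 than in ODC_WT Treg (log2 fold change -2.12 ± 0.38 SE). Ifng, Tbx21, Il12rb2 and Hlx were higher in TH1 than in each other WT subset in both tables. In ODC_WT Ifng was higher by 6.95 ± 0.56, 6.34 ± 0.54 and 6.15 ± 0.53 on the log2 scale over TH2, TH17 and Treg, the widest gap of the 8 genes over TH2 and TH17, while over Treg that of Hlx was 6.21. The call of Il12rb2 between DOHH_WT TH1 and TH2 (1.98) was lost in 6 of the 30 fits of the DOHH table that left out 1 library or all libraries of 1 replicate number of a genotype. Il12rb1 was called only against Treg (1.59 in ODC_WT and 1.77 in DOHH_WT), and Il18r1 and Il18rap only against TH2 (3.83 and 3.38 in ODC_WT, 3.73 and 3.81 in DOHH_WT).

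Per length of exon, which allows genes to be set side by side, Ifng in WT TH1 stood at 718 CPM per kb in ODC_WT and 182 in DOHH_WT. Il12rb2 stood at 323 and 230 CPM per kb, below Ifng in ODC_WT and above it in DOHH_WT. Tbx21 stood at 59.5 and 35.7, Il12rb1 at 52.9 and 56.3, Il18r1 at 25.8 and 14.6, Hlx at 14.9 and 11.4, Il18rap at 4.09 and 2.89, and Eomes at 0.437 and 0.443. Eomes was thus the lowest of the 8 in WT TH1 cells of both tables.

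The comparison of KO with WT within each subset asks whether the TH1 genes stay in their culture when ODC or DOHH is lost. Outside TH1, 4 or 5 of the 8 genes were called higher in each ODC_KO subset and 5 or 6 in each DOHH_KO subset. In ODC_KO, 3 of the 8 genes were called higher and 0 lower in TH1 (all genes tested: 21.4% called, 10.2% higher and 11.3% lower), 4 higher and 2 lower in TH2 (25.1%, 11.5% and 13.6%), 4 higher and 1 lower in TH17 (15.6%, 8.35% and 7.21%), and 5 higher and 0 lower in Treg (24%, 13.9% and 10.1%). In DOHH_KO, 5 were called higher and 1 lower in TH1 (29.1%, 14.8% and 14.2%), 6 higher and 0 lower in TH2 (25.9%, 14.3% and 11.6%), 6 higher and 1 lower in TH17 (31.4%, 17.3% and 14.1%), and 5 higher and 0 lower in Treg (32.7%, 17.5% and 15.2%). The median log2 fold change of the 8 genes was 0.29, 1.10, 1.28 and 1.38 in ODC_KO TH1, TH2, TH17 and Treg and 1.85, 2.91, 3.45 and 2.84 in DOHH_KO, beside medians over all genes between -0.0019 and 0.073. At an unadjusted p under 0.05 by edgeR, where the text gives 0 lower, 1 member was lower in ODC TH1 and 1 in ODC Treg and 0 were lower in DOHH TH2 and Treg. DESeq2 called 4, 6, 5 and 5 members in ODC and 6, 6, 7 and 5 in DOHH. The calls differed between the genes. Ifng and Eomes were called higher in all 8 comparisons, Tbx21 in 7, and Hlx and Il18rap in 6. Il18r1 was called higher in 3 and lower in 1, Il12rb1 lower in 1, and Il12rb2 lower in 3 and higher in 0. Each of these 8 comparisons used the WT group of its own subset, and the same groups also enter the comparisons between subsets.

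**Figure D1:**
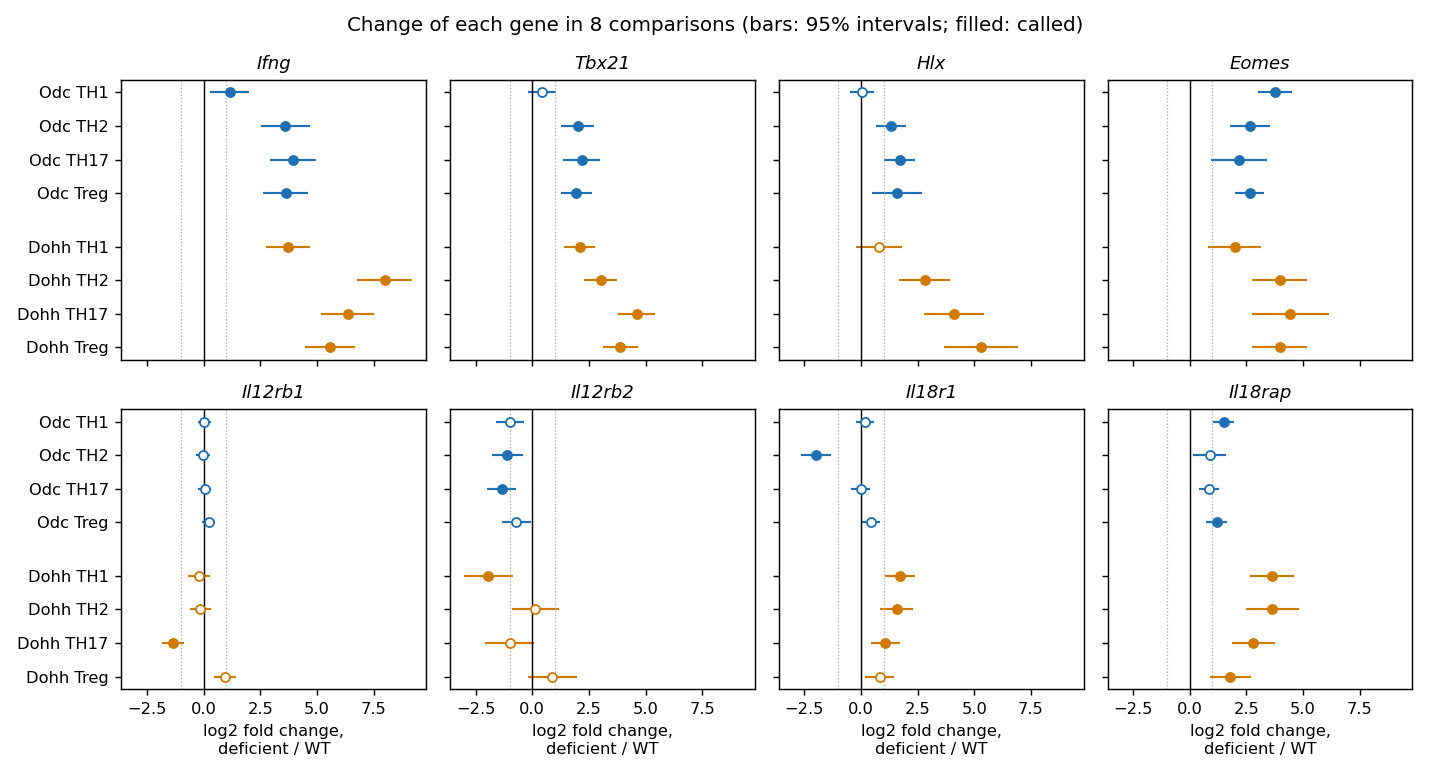
Log2 fold change of each of the 8 genes (x axis, KO over WT) in the 4 subsets of the ODC table (blue) and the DOHH table (orange), with 95% intervals; filled points were called and dotted lines mark a 2-fold change. Ifng and Eomes are filled in all 8 comparisons, while Il12rb1 and Il12rb2 have no filled point to the right of 0.

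Ifng, the defining cytokine of TH1 cells, rose in each subset that normally keeps it low. In TH2 cultures it was 6.86, 3.60, 7.08 and 12.7 CPM in ODC_WT replicates 1 to 4 and 105, 106 and 65.0 CPM in ODC_KO replicates 2 to 4. The lowest ODC_KO library was thus well above the highest ODC_WT library (log2 fold change 3.61 ± 0.52 SE, edgeR quasi-likelihood adjusted p = 4.8e-06). In DOHH_WT TH2 cells it was 3.70, 2.54 and 2.69 CPM, against 419, 379 and 1499.9 CPM in DOHH_KO replicates 1 to 3. This was the largest change of any member, 7.99 ± 0.59 on the log2 scale or 254-fold (edgeR quasi-likelihood adjusted p = 4.2e-09), and replicate 3 stood far above the other DOHH_KO libraries.

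TH17 cultures gave the same order. Ifng was 7.77, 5.15, 9.16 and 23.9 CPM in ODC_WT TH17 and 92.2, 227, 250 and 147 CPM in ODC_KO TH17 replicates 1 to 4. It was 2.10, 2.63 and 2.31 CPM in DOHH_WT TH17 and 328, 151 and 103 CPM in DOHH_KO TH17. No KO library overlapped the WT range, and the change was 3.96 ± 0.49 with ODC and 6.37 ± 0.56 with DOHH. In Treg cultures Ifng was 13.7, 7.96, 11.4 and 19.6 CPM in ODC_WT and 184, 157, 195 and 114 CPM in ODC_KO. The DOHH table gave 3.24, 6.08 and 5.20 CPM in DOHH_WT Treg and 213, 205 and 267 CPM in DOHH_KO Treg. Both Treg changes were again without overlap, at 3.63 ± 0.48 and 5.58 ± 0.53 on the log2 scale.

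In TH1 cultures, where Ifng is already abundant, the tables differed. Ifng was 592, 696, 519 and 1913 CPM in ODC_WT TH1 and 1052, 2291, 2894 and 2000.3 CPM in ODC_KO TH1. The groups overlapped because ODC_WT replicate 4 exceeded ODC_KO replicate 1. The call of 1.15 ± 0.42 (edgeR quasi-likelihood adjusted p = 0.023) was lost in fits without ODC_KO TH1 replicate 3 (0.94) or without ODC_WT TH1 replicate 1, 2 or 3 (0.96, 1.03 and 0.93). With all libraries kept it was also lost with no filter on low counts (1.11, edgeR quasi-likelihood adjusted p = 0.062) and in a fit of only the 2 groups compared (1.13, edgeR quasi-likelihood adjusted p = 0.051). With all ODC_WT replicate 4 libraries left out it was 1.77, with an edgeR quasi-likelihood adjusted p of 0.00012. In the DOHH table Ifng was 195, 240 and 271 CPM in DOHH_WT TH1 and 2775, 4242 and 2346 CPM in DOHH_KO TH1. These groups were far apart, with a change of 3.73 ± 0.47 (edgeR quasi-likelihood adjusted p = 3.2e-06).

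Set against the WT TH1 mean of the same table, Ifng reached 9.87%, 19.3% and 17.5% of it in ODC_KO TH2, TH17 and Treg, up from 0.812%, 1.24% and 1.41% in ODC_WT. Without ODC_WT TH1 replicate 4 in the reference mean the ODC_KO values were 15.2%, 29.7% and 27.0%. In DOHH_KO it reached 326%, 82.4% and 97.0%, from 1.27%, 0.998% and 2.06% in DOHH_WT. Without DOHH_KO TH2 replicate 3 the TH2 value was 169.7%, and without DOHH_KO TH17 replicate 1 the TH17 value was 54.0%. Hence mean Ifng in DOHH_KO TH2 cultures, grown with IL-4 and anti-IFN-γ, lay above the mean of DOHH_WT TH1 cultures grown with IL-12. The DOHH_WT TH1 mean was itself lower than that of ODC_WT (235 ± 38.1 SD, n = 3, against 930 ± 659 CPM, n = 4), in tables that were made separately. The order of the subsets was kept in part. TH1 was highest in KO libraries of both tables, with no overlap with the next subset, and the range of DOHH_KO TH2 lay apart from and above those of Treg and TH17. In WT cells, TH2, TH17 and Treg overlapped in the neighbouring steps of the order in both tables.

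**Figure D2:**
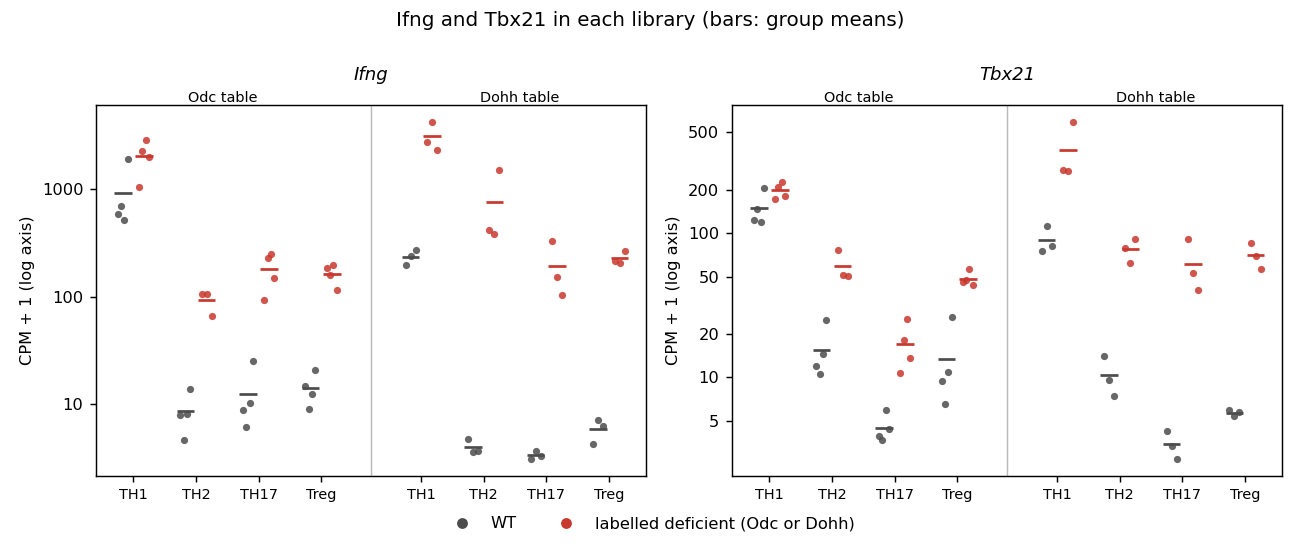
Ifng and Tbx21 in every library as CPM + 1 on a log axis, by subset and table, with WT in grey, libraries labelled ODC_KO or DOHH_KO in red and bars at the group means. In TH2, TH17 and Treg all red points lie above all grey points for both genes, while in ODC TH1 they overlap.

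Tbx21, which encodes T-bet, followed Ifng with smaller changes. In TH2 cultures it was 11.02, 9.60, 13.6 and 24.2 CPM in ODC_WT and 74.9, 50.1 and 49.5 CPM in ODC_KO. DOHH_WT TH2 libraries had 13.0, 8.56 and 6.39 CPM and DOHH_KO TH2 libraries 78.1, 61.0 and 89.9 CPM. The groups were apart in both tables, by 2.00 ± 0.35 and 3.02 ± 0.35 on the log2 scale. In Treg cultures Tbx21 was 8.47, 5.58, 9.91 and 25.3 CPM in ODC_WT and 44.5, 46.1, 55.0 and 42.9 CPM in ODC_KO. It was 4.97, 4.38 and 4.77 CPM in DOHH_WT Treg and 84.4, 69.0 and 55.7 CPM in DOHH_KO Treg. ODC_WT replicate 4 was the highest ODC_WT library in both subsets but stayed below every ODC_KO library, and the changes were 1.95 ± 0.33 and 3.88 ± 0.37.

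TH17 cultures had the lowest T-bet transcript of the WT subsets. Tbx21 was 2.90, 2.69, 4.97 and 3.37 CPM in ODC_WT TH17 and 9.70, 17.2, 24.5 and 12.6 CPM in ODC_KO TH17. It was 3.23, 2.34 and 1.73 CPM in DOHH_WT TH17 and 90.5, 52.0 and 39.1 CPM in DOHH_KO TH17. The change of 4.61 ± 0.39 in DOHH_KO TH17 (edgeR quasi-likelihood adjusted p = 1.6e-08) was the largest for Tbx21, beside 2.18 ± 0.40 in ODC_KO TH17. In TH1 cultures it was 123, 145, 119 and 205 CPM in ODC_WT and 172, 209, 226 and 181 CPM in ODC_KO. These groups overlapped, and the change of 0.41 ± 0.30 (95% interval -0.20 to 1.03) did not pass (edgeR quasi-likelihood adjusted p = 0.24). Without the ODC_WT replicate 4 libraries it was 0.61 (edgeR quasi-likelihood adjusted p = 0.013), still under the 2-fold limit. DOHH_WT TH1 libraries had 74.4, 111 and 80.9 CPM and DOHH_KO TH1 libraries 272, 267 and 590 CPM, which were apart by 2.08 ± 0.32. As a share of the WT TH1 mean, Tbx21 stood at 39.3%, 10.8% and 31.9% in ODC_KO TH2, TH17 and Treg and at 86.0%, 68.2% and 78.5% in DOHH_KO.

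Hlx, a homeobox factor of TH1 cells, rose outside TH1 from low levels. In ODC_WT it was 28.9 to 40.1 CPM in TH1, 2.93 to 6.71 CPM in TH2, 1.05 to 4.30 CPM in TH17 and 0.310 to 0.583 CPM in Treg. ODC_KO TH2 libraries had 9.41, 14.4 and 9.95 CPM, ODC_KO TH17 libraries 6.78, 6.18, 11.1 and 6.51 CPM, and ODC_KO Treg libraries 1.45, 0.602, 2.46 and 0.912 CPM. All were above their WT range (log2 fold change 1.33 ± 0.32, 1.71 ± 0.33 and 1.58 ± 0.53), although the Treg call was lost without ODC_KO Treg replicate 3 (1.13, edgeR quasi-likelihood adjusted p = 0.099) and with libraries of 1 replicate number and genotype as a block (1.36, limma voom adjusted p = 0.051). In ODC TH1 the groups overlapped, with 30.0 to 42.6 CPM in ODC_KO and a change of 0.04 ± 0.26 (95% interval -0.50 to 0.58).

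DOHH_KO gave wider gaps for Hlx. It was 3.70, 1.59 and 2.58 CPM in DOHH_WT TH2 and 19.4, 17.1 and 19.2 CPM in DOHH_KO TH2. In TH17 it was 0.323, 1.17 and 0.808 CPM in DOHH_WT and 6.19, 9.88 and 23.9 CPM in DOHH_KO. In Treg it was 0.452 CPM in DOHH_WT replicate 1 and 0 in replicates 2 and 3, where 0 counts allow up to 3, and 2.98, 6.77 and 12.4 CPM in DOHH_KO. None of these groups overlapped, and the changes were 2.80 ± 0.55, 4.11 ± 0.64 and 5.29 ± 0.79 on the log2 scale. The last came from a base of 6 counts in all, with a DOHH_WT mean of 0.151 CPM below the floor, so its size is not well fixed. In DOHH TH1 the groups overlapped (22.8 to 31.1 CPM against 28.1 to 62.8 CPM), and 0.79 ± 0.48 did not pass (edgeR quasi-likelihood adjusted p = 0.18).

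Eomes, the T-box factor best known from cytotoxic T cells and NK cells, was called higher in all 8 comparisons, although the ODC TH17 call was lost with libraries of 1 replicate number and genotype as a block (2.04, limma voom adjusted p = 0.08). In TH1 cultures it was 3.03, 0.711, 1.45 and 2.07 CPM in ODC_WT and 11.8, 31.6, 17.7 and 37.2 CPM in ODC_KO. The groups were apart by 3.75 ± 0.37 on the log2 scale (edgeR quasi-likelihood adjusted p = 7.9e-08). The sum of the NK cell or ILC1 genes ran from 222 to 381 CPM in the same ODC_WT libraries and from 604 to 999.5 CPM in ODC_KO TH1, and its part in the result was not tested. DOHH_WT TH1 libraries had 1.16, 1.89 and 2.47 CPM and DOHH_KO TH1 libraries 3.99, 8.36 and 9.27 CPM, a change of 1.97 ± 0.55. That call was lost when all DOHH_WT replicate 1 libraries were left out (1.71, edgeR quasi-likelihood adjusted p = 0.052).

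Treg cultures were the highest for Eomes in ODC libraries. ODC_WT Treg libraries had 7.83, 8.37, 8.64 and 6.88 CPM and ODC_KO Treg libraries 64.2, 45.7, 48.0 and 40.7 CPM. In DOHH_WT Treg it was 1.43, 0.973 and 1.53 CPM and in DOHH_KO Treg 16.7, 13.7 and 32.5 CPM. Both tables showed separate groups, at 2.64 ± 0.31 and 3.96 ± 0.58. The sum of the CD8 T cell genes Cd8a and Cd8b1 ran from 16.2 to 41.4 CPM in the same ODC_WT Treg libraries and 144 to 219 CPM in ODC_KO Treg, and from 20.7 to 26.8 CPM in DOHH_WT Treg and 173 to 338 CPM in DOHH_KO Treg. Of the pair, Cd8a was called higher (3.46 and 4.86) and Cd8b1 was not (0.56 and -0.01), and their part in the result was not tested. In TH2 it rose from 0.667 to 2.00 CPM in ODC_WT to 3.70 to 11.5 CPM in ODC_KO, and from 0.634 to 1.81 CPM in DOHH_WT to 8.35 to 33.7 CPM in DOHH_KO. TH17 was the lowest subset, with 0.234 to 0.452 CPM in ODC_WT and 1.06 to 2.37 CPM in ODC_KO. The DOHH_WT TH17 libraries had 1 or 2 counts each (0.0807, 0.195 and 0.115 CPM), below the floor, and DOHH_KO TH17 libraries 1.83, 1.53 and 6.19 CPM. The DOHH_KO mean was at least 10.8-fold higher than the mean floor of 3 counts per DOHH_WT library.

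Of the IL-12 receptor chains, Il12rb2 was called lower in 3 of the 8 comparisons and Il12rb1 in 1, and neither was called higher. Il12rb2, the inducible signalling chain, is the receptor subunit that sets the response to IL-12. In TH1 cultures it was 1327, 1315, 1119 and 1146 CPM in ODC_WT and 823, 446, 650 and 576 CPM in ODC_KO. Every ODC_KO library was below every ODC_WT library, and the change of -0.98 ± 0.30 missed the 2-fold limit (edgeR quasi-likelihood adjusted p = 0.0073), although it was called at -1.01 with other scalings and at -1.01 without the ODC_WT replicate 4 libraries. In the DOHH table it was 995, 922 and 705 CPM in DOHH_WT TH1 and 318, 78.7 and 289 CPM in DOHH_KO TH1. These groups were apart, and Il12rb2 fell by 1.93 ± 0.52 on the log2 scale (edgeR quasi-likelihood adjusted p = 0.0045). DOHH_KO TH1 cultures thus had more Ifng and Tbx21 and less Il12rb2 than DOHH_WT TH1 cultures.

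In TH2 cultures Il12rb2 was 547, 426, 499 and 610 CPM in ODC_WT and 156, 317 and 257 CPM in ODC_KO replicates 2 to 4. It fell by 1.10 ± 0.33, a call lost without ODC_KO TH2 replicate 2 (-0.86). TH17 libraries had 261, 222, 248 and 172 CPM in ODC_WT and 147, 54.8, 85.2 and 68.4 CPM in ODC_KO, and Il12rb2 fell by 1.35 ± 0.31 without overlap. In ODC Treg, 38.0 to 140 CPM in ODC_WT overlapped 48.1 to 68.4 CPM in ODC_KO, and -0.70 ± 0.31 was not called. Outside TH1 it was not called in the DOHH table. Il12rb2 was 156 to 315 CPM in DOHH_WT TH2 and 200 to 308 CPM in DOHH_KO TH2 (0.14 ± 0.50), and 27.7 to 42.8 CPM in DOHH_WT Treg and 53.2 to 80.1 CPM in DOHH_KO Treg (0.88 ± 0.51), where every DOHH_KO library was above every DOHH_WT library. In TH17 it was 67.9 to 78.8 CPM in DOHH_WT and 51.1, 53.2 and 6.19 CPM in DOHH_KO, and -0.99 ± 0.51 did not pass (edgeR quasi-likelihood adjusted p = 0.11). Il12rb2 shares 40% of its exonic length with Serbp1 on the opposite strand, and whether the counting used strand was not given in the sources used here. Mean Serbp1 was 546 CPM in ODC_WT TH1 and 822 CPM in ODC_KO TH1, and 391 CPM in DOHH_WT TH1 and 844 CPM in DOHH_KO TH1. Its part in the Il12rb2 values was not tested.

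Il12rb1, the constant chain shared with the IL-23 receptor, was the steadiest member. In ODC libraries it was 199 to 232 CPM in ODC_WT TH1 and 215 to 233 CPM in ODC_KO TH1, and its changes of 0.04, -0.04, 0.06 and 0.24 in TH1, TH2, TH17 and Treg were not called. Their 95% intervals stayed between -0.35 and 0.53. In DOHH libraries it was called only in TH17, with 134, 110 and 112 CPM in DOHH_WT and 70.5, 45.3 and 24.9 CPM in DOHH_KO. It fell there by 1.33 ± 0.23 without overlap (edgeR quasi-likelihood adjusted p = 9.3e-05). In DOHH Treg it was 75.8, 65.0 and 63.0 CPM in DOHH_WT and 143, 133 and 119 CPM in DOHH_KO, and the change of 0.96 ± 0.23 had an edgeR quasi-likelihood adjusted p of 0.0016 but stayed under the 2-fold limit.

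The IL-18 receptor chains moved unequally. Il18rap, the signalling chain, was 22.7, 25.6, 20.8 and 41.5 CPM in ODC_WT TH1 and 45.6, 89.8, 85.7 and 91.5 CPM in ODC_KO TH1. Its groups were apart by 1.502 ± 0.23 (edgeR quasi-likelihood adjusted p = 9e-06). In the DOHH table it was 18.1, 19.3 and 21.1 CPM in DOHH_WT TH1 and 114, 112 and 489 CPM in DOHH_KO TH1, a change of 3.61 ± 0.46 in which replicate 3 stood above the others. In Treg it rose by 1.18 ± 0.22, from 30.5 to 53.4 CPM in ODC_WT to 77.7 to 107 CPM in ODC_KO. DOHH_KO Treg, TH2 and TH17 gave 1.79 ± 0.43, 3.63 ± 0.56 and 2.79 ± 0.45. In ODC_KO TH2 and TH17 every library was above the WT range, but 0.87 ± 0.36 and 0.85 ± 0.22 stayed under the 2-fold limit.

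Il18r1, the chain that binds the cytokine, gave the only opposite calls of 1 gene between the tables. In TH2 cultures it was 7.71, 8.54, 6.15 and 12.7 CPM in ODC_WT and 1.99, 2.42 and 2.20 CPM in ODC_KO. It fell by 1.98 ± 0.33 without overlap (edgeR quasi-likelihood adjusted p = 1.9e-05). In the DOHH table it was 4.69, 6.03 and 5.27 CPM in DOHH_WT TH2 and 15.1, 13.9 and 18.4 CPM in DOHH_KO TH2, a rise of 1.57 ± 0.35 (edgeR quasi-likelihood adjusted p = 0.0011). In TH1 the ODC groups overlapped (102 to 186 CPM and 84.1 to 158 CPM), and 0.16 ± 0.20 was not called. DOHH_WT TH1 libraries had 71.0, 65.0 and 75.6 CPM and DOHH_KO TH1 libraries 185, 115 and 398 CPM (1.72 ± 0.31). DOHH_KO TH17 cultures gave 1.07 ± 0.31, a call lost without DOHH_KO TH17 replicate 1 or 2 (0.84 and 0.99) and with libraries of 1 replicate number and genotype as a block (0.99). In ODC TH17 and Treg the changes of -0.02 ± 0.20 and 0.43 ± 0.19 were not called, nor was 0.83 ± 0.31 in DOHH Treg.

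**Figure D3:**
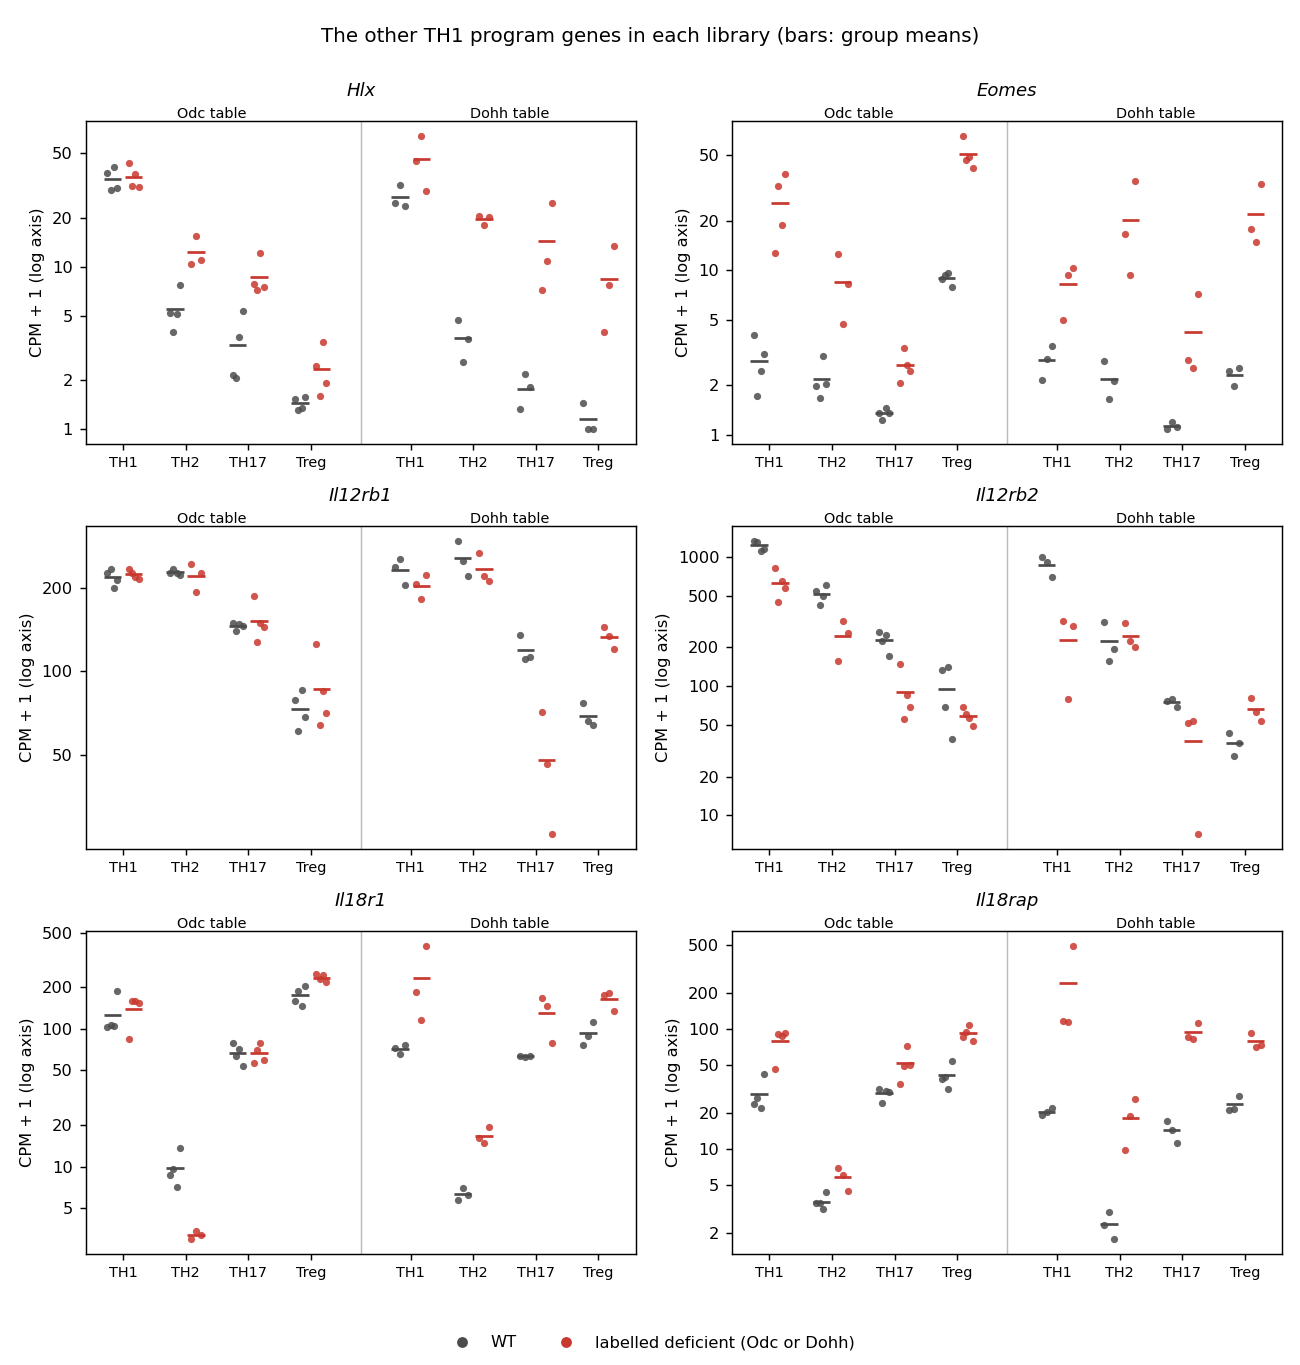
The other 6 genes in every library as CPM + 1 on a log axis, by subset and table, with WT in grey, libraries labelled ODC_KO or DOHH_KO in red and bars at the group means. Eomes is higher in red in every subset, Il12rb1 lies at the same height in both colours in ODC, and Il18r1 is lower in ODC_KO TH2 but higher in DOHH_KO TH2.

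The ratio of the chains of each receptor, per length of exon, was taken after the values had been seen and is given without a test. Il18rap over Il18r1 was above all WT libraries in all KO libraries in each of the 8 comparisons. Its mean went from 0.159 to 0.401 in ODC TH1 and from 0.222 to 1.59 in ODC TH2, where Il18r1 fell. It went from 0.181 to 0.767 in DOHH TH2, and the KO mean was 1.69 to 7.18 times the WT mean over the 8 comparisons. Il12rb2 over Il12rb1 was below all WT libraries in all KO libraries in 4 comparisons and overlapped in the other 4. It went from 6.10 to 3.02 in ODC TH1, from 2.50 to 1.24 in ODC TH2, from 1.69 to 0.615 in ODC TH17 and from 4.07 to 1.19 in DOHH TH1. In the overlapping comparisons the KO mean was 0.564 to 1.22 times the WT mean.

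**Figure D4:**
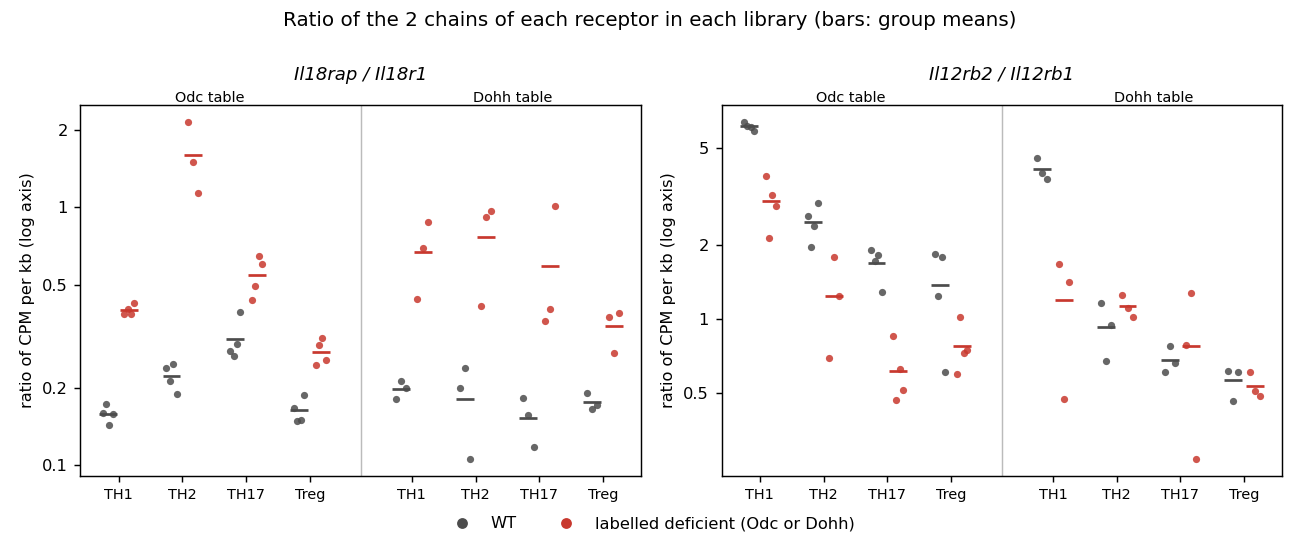
Ratio of Il18rap to Il18r1 (left) and of Il12rb2 to Il12rb1 (right) in every library, from CPM per kb of exon on a log axis, with WT in grey, libraries labelled ODC_KO or DOHH_KO in red and bars at the group means. The Il18rap ratio is higher in red in all 8 comparisons, and the Il12rb2 ratio is lower in red in ODC TH1, TH2 and TH17 and in DOHH TH1.

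Whether the change depended on the subset was tested as the change in TH2, TH17 or Treg minus the change in TH1. Among ODC libraries 1, 3 and 2 of the 8 genes were called, where 1.05%, 4.31% and 8.59% of all genes were. Libraries of 1 genotype with the same replicate number deviated together across subsets (r above 0.1 in 44 of 45 ODC pairs and 28 of 36 DOHH pairs), which this fit leaves out. With these libraries as a block (limma voom), 4 genes instead of 1 were called for ODC TH2, by the addition of Ifng, Tbx21 and Hlx (2.32, 1.58 and 1.35). The same genes were added without the ODC_WT replicate 4 libraries (2.19, 1.74 and 1.60). Ifng rose more in TH17 and Treg than in TH1 (2.81 ± 0.63 and 2.48 ± 0.62 on the log2 scale), as did Tbx21 (1.76 ± 0.50 and 1.53 ± 0.44). Hlx rose more in TH17 (1.67 ± 0.43), and in Treg it did not pass (1.54 ± 0.60) but did without the ODC_WT replicate 4 libraries (1.75, edgeR quasi-likelihood adjusted p = 0.032). Il18r1 changed less in TH1 than it fell in TH2 (-2.14 ± 0.38). Of 39 fits that left out libraries, the call was lost in 8 for Tbx21 in TH17, 1 for Tbx21 in Treg and 4 for Hlx in TH17, and in 0 for Ifng and Il18r1. Among DOHH libraries 1, 4 and 4 genes were called against 2.56%, 5.7% and 7.17%. Without the DOHH_WT replicate 2 libraries 0 genes were called in TH17 and in Treg, and without the DOHH_WT replicate 3 libraries 0 were called in Treg. Ifng rose more in TH2 (4.26 ± 0.65) and TH17 (2.64 ± 0.66), and Tbx21 more in TH17 (2.52 ± 0.49) and Treg (1.79 ± 0.47). Hlx rose more in TH17 (3.32 ± 0.80) and Treg (4.49 ± 0.96), where its 6 counts lay in 1 DOHH_WT library and the value ran from 3.59 to 8.34 with libraries left out. The receptor chains differed too, with Il12rb1 at -1.14 ± 0.32 in TH17 and 1.15 ± 0.32 in Treg, and Il12rb2 at 2.81 ± 0.73 in Treg. Of the 30 fits that left out libraries, the call was lost in 16 and 17 for Il12rb1, 7 for Il12rb2, 5 for Ifng in TH17, 1 and 8 for Tbx21 in TH17 and Treg, and 4 and 2 for Hlx, and in 0 for Ifng in TH2. The call of Ifng in TH17 was also lost with the block (2.48, limma voom adjusted p = 0.083). Eomes did not pass in these tests, at -1.09, -1.57 and -1.11 in ODC TH2, TH17 and Treg and 2.00, 2.46 and 1.99 in DOHH.

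Between the tables, the change with DOHH minus that with ODC was called for 4, 3, 6 and 4 genes in TH1, TH2, TH17 and Treg, beside 9.96%, 9.09%, 12.7% and 16% of all genes. Ifng changed more with DOHH in each subset (2.61 ± 0.64, 4.37 ± 0.78, 2.45 ± 0.74 and 1.98 ± 0.70 on the log2 scale). Tbx21 changed more in TH1, TH17 and Treg (1.69 ± 0.45, 2.47 ± 0.58 and 1.96 ± 0.50). Il18rap changed more in TH1, TH2 and TH17 (2.13 ± 0.46, 2.75 ± 0.67 and 1.99 ± 0.47), and Il18r1 in TH1 and TH17 (1.58 ± 0.36 and 1.14 ± 0.36). With 1 replicate number left out, the TH1 values ran from 1.07 to 2.46 for Il18rap and 0.96 to 1.90 for Il18r1. In TH2 the changes of Il18r1 had opposite signs, 3.53 ± 0.49 apart. Hlx changed more in TH17 and Treg (2.44 ± 0.71 and 3.73 ± 1.08), the latter ranging from 3.13 to 7.49 with libraries left out. Il12rb1 in TH17, which fell with DOHH and was at 0.06 with ODC, differed by -1.34 ± 0.26. The changes of Il12rb2 in Treg, -0.70 and 0.88 and neither called, were 1.63 ± 0.59 apart. The call of Hlx in TH17 was lost without the ODC_WT replicate 4 libraries (1.97, edgeR quasi-likelihood adjusted p = 0.055) and without those of DOHH_WT replicate 1 (2.02). Of the 14 fits that left out 1 replicate number of a genotype, Ifng lost its call in 2 for TH17 and 4 for Treg, Il12rb2 in 7 for Treg, and Il18r1 in 1 for TH1 and 1 for TH17. With the block (limma voom) 2 instead of 4 genes were called in Treg, without Ifng and Il12rb2, and 4 instead of 6 in TH17, without Ifng and Hlx. Eomes did not pass, at -1.75, 1.29, 2.27 and 1.36 in TH1, TH2, TH17 and Treg. The tables differ in mice and were counted separately, so the enzyme and the table cannot be told apart.

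Within KO cells, 5 to 7 of the 8 members were called higher in TH1 than in another subset, apart from DOHH_KO TH1 against DOHH_KO TH2, where 4 were. Between ODC_KO TH1 and ODC_KO TH2, TH17 and Treg, 7, 6 and 6 genes were called, where 6.72%, 12% and 16.9% of all genes were. Between DOHH_KO TH1 and the same subsets, 4, 6 and 6 were called against 6.9%, 16.8% and 10.4%. Ifng was higher in TH1 by 4.49, 3.52 and 3.66 on the log2 scale in ODC_KO and by 2.03, 4.01 and 3.77 in DOHH_KO, where the first was lost without the DOHH_KO replicate 2 libraries (1.46, edgeR quasi-likelihood adjusted p = 0.091). Il12rb2 did not pass between DOHH_KO TH1 and DOHH_KO TH2 (-0.09), which overlapped, and its call against DOHH_KO Treg (1.81) was lost with the block (1.59, limma voom adjusted p = 0.056) and in 6 of 30 fits that left out libraries. The calls of Il18rap against DOHH_KO TH17 and Treg (1.37 and 1.61) were lost in 3 of 30 such fits each, with lowest values of 0.30 and 0.51. Eomes was lower in TH1 than in Treg in both (-1.01 ± 0.29 and -1.55 ± 0.51), calls lost in 5 of 39 and 15 of 30 fits that left out libraries. Its order in KO cells was Treg, TH1, TH2 and TH17 in ODC_KO, each step without overlap, and Treg, TH2, TH1 and TH17 in DOHH_KO, where neighbours overlapped. Il18r1 was highest in Treg and lowest in TH2 in both WT genotypes and in ODC_KO. In DOHH_KO its order was TH1, Treg, TH17 and TH2, and the first steps overlapped.

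Of 50 other genes of the pathway, listed by role, 47 were tested in ODC libraries and 46 in DOHH libraries. In ODC_KO 11 were called higher and 1 lower in TH1, 13 and 2 in TH2, 13 and 4 in TH17, and 17 and 4 in Treg. In DOHH_KO 16 were called higher and 6 lower in TH1, 19 and 7 in TH2, 20 and 5 in TH17, and 23 and 8 in Treg. These were 25.5%, 31.9%, 36.2% and 44.7% of the genes tested in ODC_KO, beside 21.4%, 25.1%, 15.6% and 24% of all genes, so that the TH1 share lay near that of all genes. In DOHH_KO they were 47.8%, 56.5%, 54.3% and 67.4%, beside 29.1%, 25.9%, 31.4% and 32.7%. Their median log2 change was 0.03, 0.21, 0.18 and 0.49 in ODC_KO and 0.22, 0.81, 0.95 and 1.497 in DOHH_KO. The 15 effector and homing genes made up much of the rise, with 6, 6, 9 and 11 called higher in ODC_KO TH1, TH2, TH17 and Treg and 11, 10, 11 and 12 in DOHH_KO. That was 40%, 40%, 60% and 73.3% of them in ODC_KO, beside 10.2%, 11.5%, 8.35% and 13.9% of all genes, and 73.3%, 66.7%, 73.3% and 80% in DOHH_KO, beside 14.8%, 14.3%, 17.3% and 17.5%. The chemokines Ccl3 and Ccl4 and granzyme B (Gzmb) were called higher in all 8 comparisons. Gzmb rose by 1.52, 2.31, 3.46 and 4.76 on the log2 scale in ODC_KO TH1, TH2, TH17 and Treg. Cxcr3, a TH1 chemokine receptor and T-bet target, was instead lower in DOHH_KO TH1 (-3.07).

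Of the transducers of IL-12 and IL-18, 9 were tested in ODC and 8 in DOHH libraries. By edgeR, 0 were called higher in any comparison. In TH1, TH2, TH17 and Treg, 0, 0, 1 and 2 were called lower in ODC_KO and 2, 3, 3 and 5 in DOHH_KO. At an unadjusted p under 0.05 by edgeR, 1 or 2 were higher in each comparison. In the same order, 3, 5, 4 and 4 were lower at that p in ODC_KO and 3, 4, 5 and 5 in DOHH_KO. Over all genes 11.3%, 13.6%, 7.21% and 10.1% were called lower in ODC_KO and 14.2%, 11.6%, 14.1% and 15.2% in DOHH_KO. Stat4, the IL-12 transducer, was lower in TH17 (-2.03 in ODC_KO and -1.78 in DOHH_KO) and in Treg (-1.29 and -1.56). Jak2, the kinase on Il12rb2, was lower in all 4 DOHH_KO subsets. Of the IFN-γ response, Cxcl10, a chemokine that IFN-γ induces, was higher in all 8 comparisons, by 3.60 in ODC_KO TH1 and 5.34 in DOHH_KO TH1. Ifngr2, a chain of the IFN-γ receptor, was lower in all 4 DOHH_KO subsets, with -2.50 in TH1. Il18bp, the soluble inhibitor of IL-18, was higher in all 8. Runx3, a partner of T-bet, was called in none.

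Positions of the members are from GENCODE M21 (GRCm38). Ifng spans chr10:118441046-118445892 on the plus strand, with 3 exonic blocks of 1295 bases in all, of which 25.9% overlap the transcript Gm49751 on the same strand, so reads there could be split or dropped. Its neighbour Il22, 231 kb away, was called higher in 6 of the 8 comparisons. Il18r1 (chr1:40465552-40500854) and Il18rap (chr1:40515362-40551705) lie 14.5 kb apart on the plus strand, and Il1rl1, which encodes the IL-33 receptor, ends 136 bases before Il18r1. Il1rl1 was called higher in all 8 comparisons, also in ODC_KO TH2 (1.82), where Il18r1 fell. Tbx21 spans chr11:97098071-97115331, Hlx chr1:184727140-184732619 and Il12rb2 chr6:67291318-67376188, all on the minus strand. Il12rb1 spans chr8:70808449-70821424 and Eomes chr9:118478212-118486132, both on the plus strand.

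Across libraries, the genes most like Ifng in log2 CPM, by the mean of Pearson's r over the 31 ODC and the 24 DOHH libraries and among 12923 genes, were Nkg7 (0.93), Snx10 (0.925), Ly6c2 (0.924), Tbx21 (0.921) and 4930509E16Rik (0.916). Those most like Tbx21 were Nkg7 (0.924), Ifng (0.921), Serpine2 (0.911), Chsy1 (0.895) and Zbtb32 (0.891). Among the members, Hlx ranked 68 in likeness to Ifng (r = 0.803), Il18rap 1171 and Eomes 1174 (both 0.61), and Il18r1, Il12rb2 and Il12rb1 ranked 3187, 3906 and 4176. These r values describe libraries that share subsets and genotypes, so they largely repeat the group differences above.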

How the data were processed

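RNA was sequenced from CD4+ T cells cultured under TH1, TH2, TH17 or Treg conditions (TruSeq stranded mRNA libraries). The authors deposited 2 tables of raw counts of reads per gene, 1 for ODC and 1 for DOHH, made with deepTools, STAR and featureCounts on mm10 according to the submitters' processing notes. Versions, annotation release and strand setting are not given in the sources used here. The 55 libraries with a column in these tables were used; ODC_KO TH2 replicate 1 was not analysed here. Columns were matched to samples by name and groups were taken from the labels. Gene rows without a name held 0.0709% and 0.0585% of counts and were kept in the fits. Irf8, Myd88 and Itgam were listed at 0 in all DOHH libraries, so the tables were not counted alike.

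Counts were scaled by TMM and tested per table over its 8 groups with edgeR 4.0.16 (R 4.3.3; filterByExpr, robust quasi-likelihood fit), with Benjamini-Hochberg adjustment over 13839 genes (ODC), 13897 (DOHH) or 14850 (both tables in 1 fit, for the difference between them). A call needed a change above 2-fold and an adjusted p under 0.05. CPM values are TMM-scaled. Intervals are 95%. With 3 or 4 libraries per group, low counts limit the precision, and reads carry no molecular identifiers. No pair of libraries held identical values. In simulated counts, 196 of 200 changed genes were recovered with 2 false calls for KO against WT in ODC TH2 (13302 genes), and 186 with 2 false calls in DOHH TH2 (13451 genes). For the change in TH2 minus that in TH1, 186 of 200 were recovered in ODC (90% at 3-fold, 96% at 8-fold) and 169 in DOHH (73% and 96%), with 6 false calls each. The simulation changed far fewer genes than were called here, none of them low in mean level, and drew each library independently. These figures therefore check the code and give no error rates for low-count members or for libraries that deviate together.

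Gene lengths and coordinates were read from GENCODE M21 (GRCm38) and promoters from RefSeq (GRCm38.p6). The genes named are the 8 members, up to 4 pathway genes per group where needed, and the 5 genes most like Ifng and Tbx21. Members and lists were chosen with earlier results of these data known. Alternatives were RLE or upper-quartile scaling, DESeq2 1.42.0, other low-count filters, glmTreat, a stricter adjusted p, blocks (limma 3.58.1), leaving out libraries, and only the groups compared. Leaving out all libraries of 1 replicate number of a genotype was added after seeing the data.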

Additional observations from a re-analysis of the deposited data

Results flagged for a closer look

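The 8 genes in the groups of 4 libraries gave 56 sets of values, which share libraries between genes. In 5 of the 56 sets 1 library lay far from the other 3, where chance gives about 1 in 20. They were Ifng in ODC_WT TH1 replicate 4 (1913 CPM), Il18r1 in the same library (186 CPM) and in ODC_KO TH1 replicate 1 (84.1 CPM), Il18rap in ODC_KO TH1 replicate 1 (45.6 CPM) and Hlx in ODC_KO TH17 replicate 3 (11.1 CPM). Thus 4 of the 5 fell in 2 libraries of the ODC TH1 comparison, 1 of each genotype.

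The change with genotype differed between subsets for several genes, by the interaction term (log2 scale, change in the named subset minus change in TH1). In ODC these were Ifng in TH17 (2.81) and Treg (2.48), Tbx21 in TH17 (1.76) and Treg (1.53), Hlx in TH17 (1.67) and Il18r1 in TH2 (-2.14). In DOHH they were Ifng in TH2 (4.26) and TH17 (2.64), Tbx21 in TH17 (2.52) and Treg (1.79), Hlx in TH17 (3.32) and Treg (4.49), Il12rb1 in TH17 (-1.14) and Treg (1.15), and Il12rb2 in Treg (2.81). Ifng in ODC TH17 and Treg and in DOHH TH2, and Il18r1 in ODC TH2, kept their calls in all fits that left out libraries. The other calls were each lost in some of these fits, those of Il12rb1 in 16 and 17 of 30. Ifng in DOHH TH17 also lost its call with the block (limma voom).

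The signed change with DOHH was above that with ODC for Ifng in TH1, TH2, TH17 and Treg (2.61, 4.37, 2.45 and 1.98), Tbx21 in TH1, TH17 and Treg (1.69, 2.47 and 1.96), Il18r1 and Il18rap in TH1 (1.58 and 2.13), TH2 (3.53 and 2.75) and TH17 (1.14 and 1.99), Hlx in TH17 and Treg (2.44 and 3.73) and Il12rb2 in Treg (1.63). It was lower for Il12rb1 in TH17 (-1.34). Calls were lost in some fits that left out libraries for Ifng in TH17 and Treg and Il18r1 in TH1 and TH17. The same held for Hlx in TH17 and Il12rb2 in Treg.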

How the results depend on the processing

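No called value changed sign under any setting run, and 1521 of 1587 counts stayed within 1.5 times. Of the KO against WT values of single members under settings that kept all libraries, 606 of 638 kept their side of the threshold and size, 22 lost a call, 6 gained one and 4 moved. With only the 2 groups compared, 3, 5 and 5 KO against WT calls became 2, 4 and 4 in ODC TH1, TH17 and Treg. The members called between TH1 and TH2 changes in ODC went from 1 to 2 (RLE, upper-quartile scaling, a mean count of at least 50 and the replicate block), 3 (DESeq2), 4 (replicate block within genotype, on libraries of 1 replicate number and genotype) and 0 (glmTreat), and in DOHH from 1 to 2 with DESeq2. In DOHH Treg against TH1 changes, 4 became 2 with no filter and 1 with glmTreat or an adjusted p below 0.01. For DOHH minus ODC in Treg, 4 became 2 with no filter, the replicate block within genotype or an adjusted p below 0.01, and 0 with glmTreat. GlmTreat, which tests against a 2-fold change, also took members called from 3, 5 and 5 to 1, 2 and 3 in ODC_KO against ODC_WT TH1, TH17 and Treg, from 7 to 3 in ODC_KO TH1 against TH2, from 3 and 2 to 0 for ODC TH17 and Treg against TH1 changes, from 6 to 3 in DOHH_KO TH1 against Treg, from 4 to 1 for DOHH TH17 against TH1 changes, and from 4 and 6 to 0 and 1 for DOHH minus ODC in TH1 and TH17. Members called in the other KO against WT comparisons fell less, from 6 to 4 in ODC TH2. In DOHH TH1, TH2, TH17 and Treg they fell from 6, 6, 7 and 5 to 4, 5, 5 and 4. With glmTreat, pathway genes called went from 12, 15, 17 and 21 to 6, 6, 10 and 13 in ODC TH1, TH2, TH17 and Treg and from 26 to 16 in DOHH TH2. An adjusted p below 0.01 gave 1 for ODC TH17 and for ODC Treg against TH1 changes, 3 in DOHH_KO TH1 against Treg, 1 for DOHH TH17 against TH1 changes and 3 for DOHH minus ODC in TH17. GlmTreat and the stricter p are stricter by construction, and for the other settings the cause was not tested.

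With 1 library or all libraries of 1 replicate number left out, the counts of KO against WT ran from 2 to 4 (TH1), 5 to 7 (TH2) and 4 to 5 (Treg) in ODC and from 5 to 7 (TH1) and 6 to 7 (TH17) in DOHH, and stayed at 5, 6 and 5 in ODC TH17, DOHH TH2 and DOHH Treg. Against TH1 changes they ran from 1 to 4 (TH2), 1 to 3 (TH17) and 1 to 4 (Treg) in ODC and from 1 to 4, 0 to 4 and 0 to 5 in DOHH; DOHH minus ODC in Treg ran from 2 to 5. The 4 for ODC TH2 came without ODC_WT replicate 4, the 4 for DOHH TH2 without DOHH_KO replicate 3, the 0 for DOHH TH17 without DOHH_WT replicate 2, and the 0 for DOHH Treg without DOHH_WT replicate 2 or 3. Single libraries were not left out of the fit of both tables. Same-numbered ODC_WT and ODC_KO libraries of a subset had a median r of 0.007, above 0.1 in 7 of 15 pairs. Other-numbered pairs had -0.026 and 9 of 45. In DOHH the values were -0.012 and 1 of 12, beside 0.003 and 1 of 24. So few pairs cannot exclude that the numbers pair WT with KO libraries, and the main fit does not pair them. Libraries of 1 genotype with the same number deviated together across subsets (median r 0.28 in ODC and 0.16 in DOHH), and the block within genotype models that. The labels do not say whether such libraries came from 1 animal. Between ODC_WT and ODC_KO libraries the replicate block otherwise added the call of Il12rb2 in ODC TH1 (-1.03).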

Other observations

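Marker genes of further cell types differed between the tables. The 3 B cell genes were called higher in ODC_KO TH1, TH2 and Treg (summed level 1.76 to 51.5 CPM over ODC_WT and 2.66 to 341 CPM over ODC_KO libraries). In DOHH, where 2 of the 3 were tested, sums ran from 0.729 to 27.6 CPM over DOHH_WT and 0.221 to 25.2 CPM over DOHH_KO. The summed myeloid genes ran from 86.3 to 4451 CPM in DOHH_KO TH17 and 71.0 to 3004 CPM in DOHH_KO Treg, against at most 33.7 CPM over DOHH_WT. They ran from 36.0 to 267 CPM in ODC_KO TH17 and 73.6 to 329 CPM in ODC_KO Treg, against at most 42.3 and 40.3 CPM in the ODC_WT groups. Of the 2 CD8 T cell genes, Cd8a was called higher in TH17 and Treg of both tables and in DOHH_KO TH2, while Cd8b1 was called lower in DOHH_KO TH1 and TH2. Their sum ran from 17.7 to 40.1 CPM in ODC_WT TH17, 35.8 to 68.2 CPM in ODC_KO TH17, 22.7 to 26.2 CPM in DOHH_WT TH17 and 87.7 to 151 CPM in DOHH_KO TH17. In TH2 it ran from 11.4 to 20.3 CPM in ODC_WT and 5.81 to 8.15 CPM in ODC_KO. Of the 6 T cell genes, 3 were called lower in each DOHH_KO subset (Cd4, Cd5 and Cd28), and Cd5 ran from 434 to 730 CPM over DOHH_WT and 23.3 to 87.0 CPM over DOHH_KO. The medians of Cd3d, Cd3e and Cd3g were 554, 234 and 381 CPM over DOHH_WT and 576, 172 and 483 CPM over DOHH_KO. The part of these markers in the levels of the 8 genes was not tested.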
